A study of Mus musculus with 13 samples.

Results

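The comparison asked how perivascular adipose tissue (PVAT, the fat that surrounds blood vessels) of mice that received splenocytes lacking Nlrp3 differed from that of mice that received wild-type splenocytes, with no diabetes in either donor group. It was made from 6 of the 13 bulk RNA-seq libraries of the series, chosen by their titles: 3 of recipients of splenocytes from wild-type (WT) mice (WTS-R) and 3 of recipients of splenocytes from Nlrp3 KO mice (NS-R). All mice had a C57BL/6 background. The genotype label read WT in WTS-R and Nlrp3 KO in NS-R, and it did not say whether the donor or the recipient carried the deletion; age, sex and the time between transfer and dissection were not given. Nothing in the labels named separate animals, so p-values measured only the spread between these libraries, which may be technical. Of 34013 genes in the table, 17270 passed a filter on low counts over the whole series and were tested. The other 7 libraries, from recipients of splenocytes of mice with type 2 diabetes (T2DM; TS-R, 4 libraries) and of Nlrp3 KO T2DM mice (NTS-R, 3 libraries), entered the fit to estimate the spread and are used at the end for the test of a difference between the donor backgrounds.

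NLRP3 is a cytosolic sensor, made mostly by myeloid cells, that assembles with the adaptor ASC (Pycard) and caspase-1 (Casp1) into an inflammasome. Caspase-1 then cleaves pro-IL-1 beta and pro-IL-18 to their active forms and opens gasdermin D (Gsdmd) pores. PVAT of the mouse thoracic aorta is close to brown fat, rich in mitochondria and in the uncoupling protein UCP1, and lies against the smooth muscle of the vessel wall, nerves, lymphatic vessels and lymph nodes. Transferred splenocytes are lymphocytes, monocytes, macrophages and granulocytes, so that in a recipient only some of the cells in the fat could carry the donor genotype. In bulk RNA, fewer cells of a type and less RNA per cell cannot be told apart.

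The 6 libraries held from 15867697 counts (WTS-R replicate 3) to 37011122 counts (NS-R replicate 1). Levels are given as CPM, edgeR's library-size scaled counts with TMM factors, and 3 counts, the most that a count of 0 allows, were between 0.0778 and 0.204 CPM, for counting error alone. The defining fat markers were abundant in all 6: Adipoq was at 1678, 1667 and 1742 CPM (WTS-R) against 1181, 1584 and 1087 CPM (NS-R), and Ucp1 at 2354, 4364 and 2283 CPM (WTS-R) against 1415, 1779 and 1804 CPM (NS-R). Several libraries stood apart from the rest of their group. Both NS-R replicate 1 and NS-R replicate 2 held airway transcripts. The summed level of 16 airway secretory and alveolar genes was 5.32, 6.28 and 6.17 CPM (WTS-R) against 7547, 14962 and 3.20 CPM (NS-R). Scgb1a1, the club cell secretoglobin, was at 0.256, 0.0628 and 0.193 CPM (WTS-R) against 2231, 4615 and 0 CPM (NS-R), and the secreted airway protein gene Bpifa1 at 0, 0.126 and 0.0643 CPM (WTS-R) against 3110.3, 5835 and 0 CPM (NS-R). The third NS-R library was at 0 for both.

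NS-R replicate 3 differed from the other 5 in other ways. Its female transcript Xist was at 529.5 CPM and the other 5 libraries had at most 0.341 CPM. The share of counts on mitochondrial genes was 36.7% there and 21.1% to 27.8% in the others. Its clock gene level (mean log2 level of the Dbp arm minus that of the Arntl arm) was 2.96, against -0.57 to 0.87. The summed level of 16 plasma cell genes was 249, 206 and 422 CPM (WTS-R) against 371, 356 and 2499.6 CPM (NS-R), and that of 10 mesothelial genes 353, 200.1 and 177 CPM (WTS-R) against 421, 616 and 62.3 CPM (NS-R). WTS-R replicate 1 held high levels of interferon-stimulated genes, and WTS-R replicate 3 and NS-R replicate 1 skeletal muscle transcripts, with the skeletal actin Acta1 at 1.73, 1.95 and 793 CPM (WTS-R) against 349, 7.78 and 86.0 CPM (NS-R). The perinatal myosin gene Myh8 was at 290.05 CPM in NS-R replicate 1 and at most 0.321 CPM in the other 5 libraries. The part of this uneven content in the comparisons was not tested, and results that rest on these libraries are given with and without them.

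**Figure D1:**
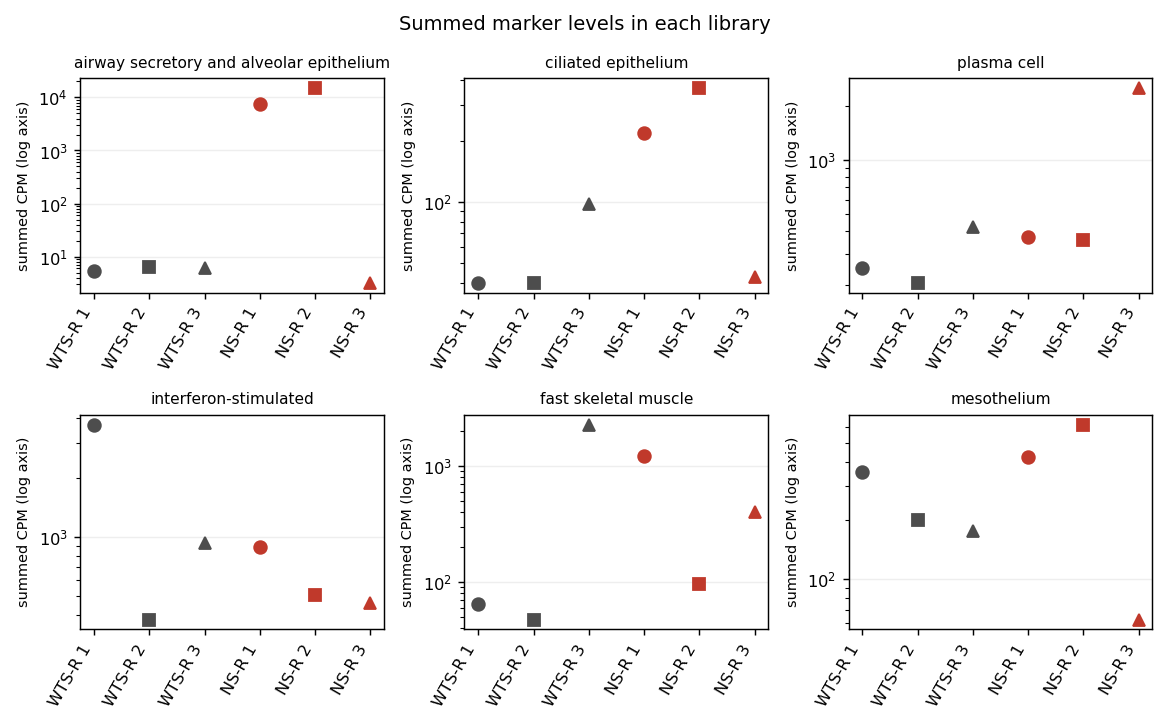
Summed level in CPM (log axis, a different range in each panel) of 6 marker gene lists in each of the 6 libraries (WTS-R grey, NS-R red). NS-R replicates 1 and 2 stand above the rest for airway secretory and ciliated genes, NS-R replicate 3 for plasma cell genes, and WTS-R replicate 1 for interferon-stimulated genes.

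Nlrp3, the deleted gene, was low in every library, at 0.641, 0.251 and 0.707 CPM (WTS-R) against 0.985, 0.455 and 1.57 CPM (NS-R). The groups overlapped, and the highest library of the 6 was NS-R replicate 3. The fitted log2 fold change of Nlrp3 in NS-R against WTS-R was 0.90 (SE 0.71, FDR 0.9997), so that the transcript was not detectably lower in recipients of Nlrp3 KO splenocytes at this depth. The fitted Nlrp3 change ran from 0.37 to 1.58 over all alternatives, with an FDR of 0.384 to 1. A gene-level count would also hold reads from parts of the gene that a knockout allele leaves in place, and the allele is not described in the labels.

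No gene differed between NS-R and WTS-R at a false discovery rate (FDR, Benjamini-Hochberg) under 0.05 in the edgeR quasi-likelihood fit (0 of 17270 genes, 0%). The lowest FDR was 0.204. At an unadjusted p under 0.05 the same fit had 850 genes higher in NS-R (4.92% of those tested) and 67 lower (0.388%). All 3 NS-R libraries lay above all 3 WTS-R libraries for 1301 genes (7.53%) and below them for 1232 genes (7.13%). Fitted changes were about as often positive (8779 genes) as negative (8487), with a median of 0.01 on the log2 scale. Other fits made calls, nearly all of them upward. DESeq2 called 190 genes higher (1.1%) and 0 lower, and limma's voomWithQualityWeights 14 higher (0.0811%) and 0 lower. Without NS-R replicate 3 edgeR called 503 genes higher (2.77% of 18174 tested) and 0 lower. When low counts were kept in the table edgeR called 137 higher (0.403% of 34013) and 1 lower. The lower gene there was the predicted gene Gm9029, named after its value was seen.

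Most calls of the wider sets followed NS-R replicates 1 and 2. Of the 190 genes called by DESeq2, 142 were at least 2-fold higher in both of these libraries than in NS-R replicate 3, after 0.5 CPM was added to each level, and 14 were at least 2-fold higher in NS-R replicate 3 than in both. Of the 503 called without NS-R replicate 3, 458 had the first pattern. Those 503 were chosen with NS-R replicates 1 and 2 as the only NS-R libraries, so this pattern was in part built into the set. Their fit also tested more genes (18174). Over all genes tested in the fit of 13 libraries, 538 of 17270 had the first pattern and 298 had the reverse pattern. NS-R replicate 3 reached 1.5 times the WTS-R mean for 64 of the 190, 46 of the 503 and all 14 of the genes called by voomWithQualityWeights, against 1661 of 17270 genes tested, so that the 46 of 503 were close to the share over all genes. Those 14 were also among the 190, and 13 of them among the 503.

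**Figure D2:**
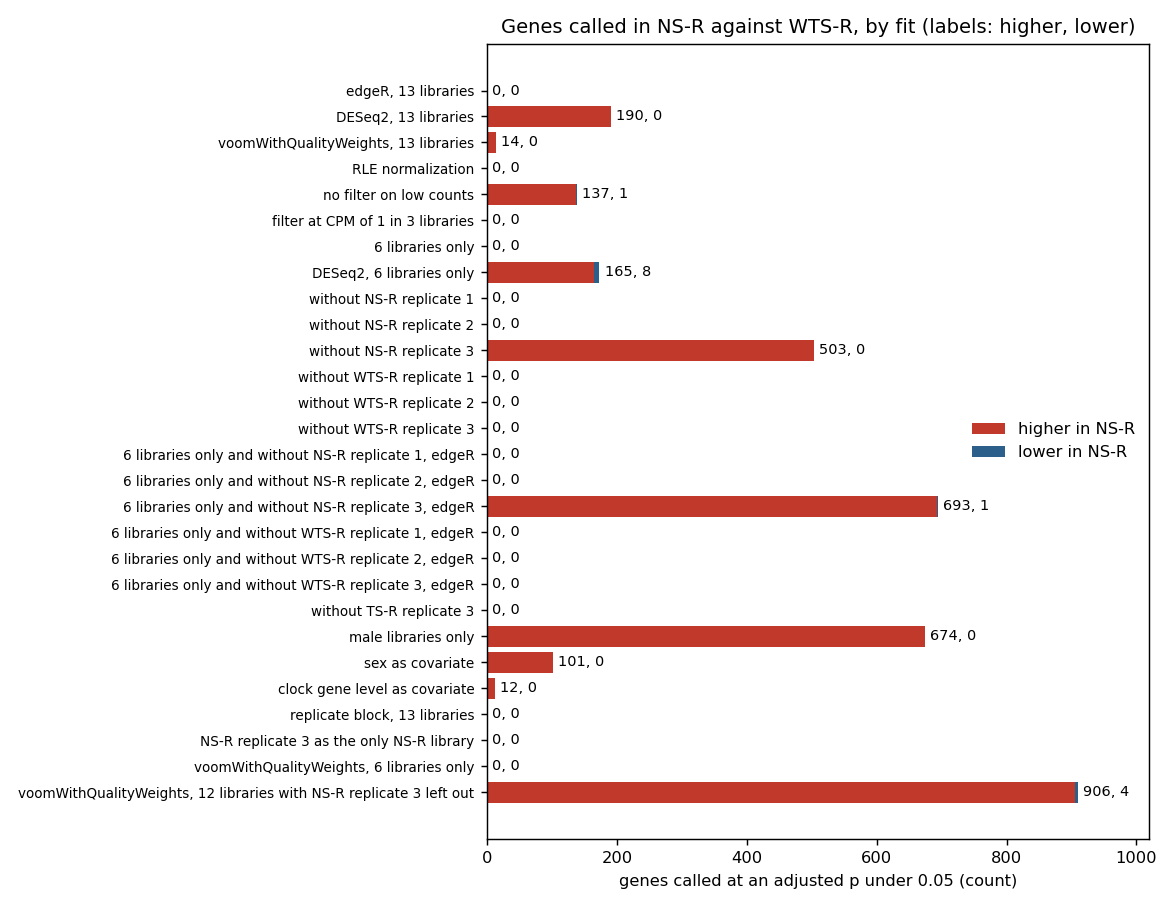
Number of genes called in NS-R against WTS-R at an adjusted p under 0.05 (horizontal bars from 0; higher in red, lower in blue, both counts printed) in the edgeR fit of 13 libraries and in each alternative. The fits that leave out NS-R replicate 3 call 503 to 906 genes higher, and most fits that keep it call 0.

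The 14 genes called by voomWithQualityWeights were Kcnk2, Car8, Plekha6, Pdzk1ip1, Egr2, Prkcz, Osbpl6, Jun, Mal2, Myh11, Stc2, Lrrc71, Diras2 and Sec14l2. None of them had overlapping groups, with NS-R the higher. That order follows in part from their choice by p in the same libraries, and 7.53% of all genes tested had it. Kcnk2, a background potassium channel, was at 0.256, 0.251 and 0.578 CPM (WTS-R) against 1.94, 1.93 and 2.45 CPM (NS-R). NS-R replicate 3, without airway secretory transcripts, was the highest Kcnk2 library. The fitted log2 fold change of Kcnk2 was 2.53 (SE 0.42, FDR 0.204), with an FDR of 0.0234 by voomWithQualityWeights and 0.000527 to 0.9988 over all alternatives. Kcnk2 was low in WTS-R, close to the 3-count floor. Car8, a carbonic anhydrase-related protein that binds the IP3 receptor, was at 3.85, 3.83 and 4.43 CPM (WTS-R) against 15.7, 17.5 and 8.85 CPM (NS-R). It gave 1.81 (SE 0.30, FDR 0.204), with 2.04 without NS-R replicate 3 and 1.16 with that library alone; its FDR was 7.14e-06 to 1 over the alternatives. Plekha6, a junctional adaptor protein gene, was at 5.13, 4.84 and 6.88 CPM (WTS-R) against 27.1, 13.8 and 18.9 CPM (NS-R), and its fold change was 1.84 (SE 0.35, FDR 0.204). Stc2, which encodes the secreted glycoprotein stanniocalcin 2, was at 1.22, 0.691 and 1.61 CPM (WTS-R) against 4.88, 3.41 and 2.99 CPM (NS-R) and gave 1.70 (SE 0.36, FDR 0.204). Neither gene had an NS-R library within the WTS-R range. Prkcz, the atypical protein kinase C zeta, was at 1.09, 1.01 and 2.31 CPM (WTS-R) against 5.06, 7.16 and 3.61 CPM (NS-R), a fold change of 1.85 (SE 0.43, FDR 0.211). Prkcz and the oxysterol-binding protein gene Osbpl6 (2.05, 2.70 and 2.06 CPM (WTS-R) against 9.70, 7.56 and 4.36 CPM (NS-R)) were lowest among NS-R in replicate 3.

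The 12 genes higher in NS-R by smallest p came from those with non-overlapping groups and a mean of at least 1 CPM. Of these 12, 8 had NS-R replicates 1 and 2 at least 2-fold above NS-R replicate 3. They were Scgb3a1, Dnah10, Lrrc71, Gramd2, Slc16a11, Spint1, Prom1 and A2ml1. Scgb3a1, a secretoglobin of airway epithelium, was at 0.385, 0.503 and 0.643 CPM (WTS-R) against 483, 791 and 0.681 CPM (NS-R). Its fitted log2 fold change was 9.70 (SE 1.72, FDR 0.204), and 0.45 with NS-R replicate 3 as the only NS-R library. The axonemal dynein heavy chain Dnah10 was at 0.705, 0.817 and 0.643 CPM (WTS-R) against 19.4, 16.4 and 1.77 CPM (NS-R), and Lrrc71, also among the 14 genes above, at 1.60, 1.95 and 1.22 CPM (WTS-R) against 12.6, 10.9 and 3.47 CPM (NS-R). Gramd2 was at 0.128, 0.377 and 0.321 CPM (WTS-R) against 8.17, 8.98 and 0.885 CPM (NS-R) and the monocarboxylate transporter family gene Slc16a11 at 1.79, 1.07 and 1.48 CPM (WTS-R) against 37.0, 33.9 and 2.99 CPM (NS-R). Prom1 (prominin-1, of apical membrane protrusions) was at 1.15, 0.943 and 1.22 CPM (WTS-R) against 8.22, 15.4 and 2.31 CPM (NS-R), the protease inhibitor Spint1 at 0.192, 0.251 and 0.0643 CPM (WTS-R) against 4.77, 10.9 and 0.612 CPM (NS-R) and A2ml1 at 0, 0.189 and 0.129 CPM (WTS-R) against 13.7, 31.0 and 0.612 CPM (NS-R). In each of these genes NS-R replicates 1 and 2 were above NS-R replicate 3, which was nearer to WTS-R than to the other NS-R libraries. Cyp2f2, the club cell cytochrome P450, was at 4.29, 4.08 and 4.88 CPM (WTS-R) against 372, 716 and 2.04 CPM (NS-R), and here NS-R replicate 3 was below WTS-R. The ciliated epithelium list (14 genes) summed to 40.0, 40.0 and 97.2 CPM (WTS-R) against 218, 363 and 42.7 CPM (NS-R), and its master regulator Foxj1 was at 0, 0.0628 and 0.129 CPM (WTS-R) against 20.7, 41.9 and 0.204 CPM (NS-R). Of the 16 airway genes 12, among them Scgb1a1 and Bpifa1, failed the count filter with NS-R replicate 3 in the fit. The 4 tested were Scgb3a1, Cyp2f2, Reg3g and Ltf. Their fitted log2 fold changes ran from 6.38 (Cyp2f2) to 14.99 (Reg3g). By edgeR 0 of them passed the FDR, and DESeq2 called all 4 (against 1.1% of all genes). Ltf (lactoferrin), listed with neutrophil granule genes as well as airway secretions, was at 0.0641, 1.38 and 0.129 CPM (WTS-R) against 424, 749 and 0.136 CPM (NS-R), while the neutrophil genes S100a8 (0.769, 3.14 and 0.450 CPM (WTS-R) against 0.726, 2.39 and 2.25 CPM (NS-R)) and Csf3r (5.83, 2.95 and 5.65 CPM (WTS-R) against 5.16, 5.34 and 5.44 CPM (NS-R)) overlapped between the groups.

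Most genes of the inflammasome and of IL-1 signalling, the pathway of the deleted gene, overlapped between the groups. Of 22 listed genes 20 were tested; 0 passed the FDR, 13 fitted changes were positive, 2 had an unadjusted p under 0.05 (both higher, against 4.92% of all genes) and 4 had all NS-R libraries above all WTS-R libraries (against 7.53%). The list median was 0.28 on the log2 scale, against 0.01 over all genes tested, and 0.14 without WTS-R replicate 2, 0.18 without NS-R replicate 1 and 0.08 with sex as a covariate. Il1b, the pro-IL-1 beta gene, was at 0.513, 0.566 and 0.900 CPM (WTS-R) against 1.84, 3.12 and 2.11 CPM (NS-R). Every NS-R library was above every WTS-R library, at levels of a few CPM. The Il1b log2 fold change was 1.84 (SE 0.51, FDR 0.343) and its unadjusted p 0.00327; it was 1.90 without NS-R replicate 3 and 1.70 with that library alone, and its FDR over the alternatives ran from 0.0156 to 1. The IL-18 receptor chain Il18r1 was at 2.12, 1.95 and 1.09 CPM (WTS-R) against 10.6, 10.9 and 2.25 CPM (NS-R), with NS-R replicates 1 and 2 high and NS-R replicate 3 close to WTS-R. The assembly and effector genes overlapped between groups. Casp1 was at 11.7, 7.92 and 12.7 CPM (WTS-R) against 9.85, 11.8 and 12.2 CPM (NS-R), Pycard at 2.88, 2.01 and 4.31 CPM (WTS-R) against 4.02, 4.89 and 2.79 CPM (NS-R) and Gsdmd at 37.4, 17.8 and 29.3 CPM (WTS-R) against 23.5, 25.7 and 22.9 CPM (NS-R). The IL-18 antagonist Il18bp was highest in WTS-R replicate 1, at 35.4, 8.61 and 17.4 CPM (WTS-R) against 6.85, 8.69 and 9.39 CPM (NS-R), with a log2 fold change of -1.29 (SE 0.63, FDR 0.9935). Il18 was at 4.36, 3.02 and 4.31 CPM (WTS-R) against 4.07, 4.09 and 2.38 CPM (NS-R), and the IL-1 receptor Il1r1 at 13.3, 15.6 and 13.8 CPM (WTS-R) against 26.5, 16.2 and 15.6 CPM (NS-R), a fold change of 0.47 (SE 0.34, FDR 0.9997). The IL-1 receptor antagonist Il1rn was at 2.05, 1.19 and 3.21 CPM (WTS-R) against 1.84, 2.27 and 0.612 CPM (NS-R), without a gap between the groups. Other NF-kappaB-type cytokine transcripts were low: Il6 was at 0.0641, 0.189 and 0 CPM (WTS-R) against 1.48, 1.48 and 0.272 CPM (NS-R), and the neutrophil chemokine Cxcl1 at 0.513, 1.32 and 1.41 CPM (WTS-R) against 2.36, 8.64 and 2.25 CPM (NS-R), with a log2 fold change of 2.03 (SE 0.61, FDR 0.415). Il6 in WTS-R was at or under the 3-count floor.

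Immediate early genes, which are transcribed within minutes of growth factor, calcium, stress or mechanical stimuli, were the list with the most members at an unadjusted p under 0.05. All 20 listed genes were tested and 19 fitted changes were positive. By edgeR 0 of 20 passed the FDR, 13 had an unadjusted p under 0.05 (all higher, against 4.92% of all genes), and 9 had all NS-R libraries above all WTS-R libraries (against 7.53%). The list median was 1.22, 1.34 without NS-R replicate 3, 0.71 with that library alone and 0.79 without NS-R replicate 2. DESeq2 called 7 of the 20 (Jun, Junb, Egr1, Egr2, Egr3, Btg2 and Zfp36; against 1.1% of all genes), edgeR without NS-R replicate 3 called 5 (Junb, Egr1, Egr2, Btg2 and Zfp36; against 2.77%), and voomWithQualityWeights called 2 (Jun and Egr2; against 0.0811%).

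Jun, a subunit of the AP-1 transcription factor, was at 79.3, 64.4 and 129.9 CPM (WTS-R) against 236, 251 and 206 CPM (NS-R). The 3 NS-R libraries lay close to each other and above all of WTS-R. Its log2 fold change was 1.35 (SE 0.31, FDR 0.204), with an FDR of 0.000333 to 1 over the alternatives. The zinc finger factors of the EGR family had changes of the same sign. Egr2 was at 1.22, 1.51 and 3.79 CPM (WTS-R) against 10.7, 13.9 and 8.64 CPM (NS-R), Egr3 at 5.83, 3.64 and 10.5 CPM (WTS-R) against 34.1, 18.5 and 30.2 CPM (NS-R) and Egr1 at 22.3, 50.3 and 59.1 CPM (WTS-R) against 256, 330.3 and 81.2 CPM (NS-R). For all 3 the groups did not overlap, and Egr1 was the one with NS-R replicate 3 close to WTS-R. The log2 fold changes were 2.36 (SE 0.52, FDR 0.204) for Egr2, 2.06 (SE 0.53, FDR 0.283) for Egr3 and 2.36 (SE 0.67, FDR 0.363) for Egr1. The AP-1 partner Fos was at 15.4, 40.9 and 58.3 CPM (WTS-R) against 125, 476 and 27.7 CPM (NS-R), with NS-R replicate 3 inside the WTS-R range. The fitted Fos change was 2.48 (SE 0.87, FDR 0.647) and turned to -0.43 with NS-R replicate 3 as the only NS-R library. Fosb was highest in NS-R replicate 2, at 7.56, 11.4 and 10.3 CPM (WTS-R) against 16.8, 138 and 17.6 CPM (NS-R). Junb (22.5, 28.1 and 41.4 CPM (WTS-R) against 108, 184 and 36.4 CPM (NS-R)) and the antiproliferative gene Btg2 (42.7, 48.3 and 87.8 CPM (WTS-R) against 227, 261 and 72.5 CPM (NS-R)) were high in NS-R replicates 1 and 2 only, and Zfp36, which encodes the mRNA-destabilising protein tristetraprolin, was at 66.2, 94.7 and 96.2 CPM (WTS-R) against 177, 296 and 107 CPM (NS-R). The one gene with a negative fitted change was the orphan nuclear receptor Nr4a3, at 49.1, 61.8 and 42.4 CPM (WTS-R) against 21.9, 30.1 and 34.0 CPM (NS-R), where NS-R was the lower group without overlap; its log2 fold change was -0.83 (SE 0.84, FDR 0.9997).

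**Figure D3:**
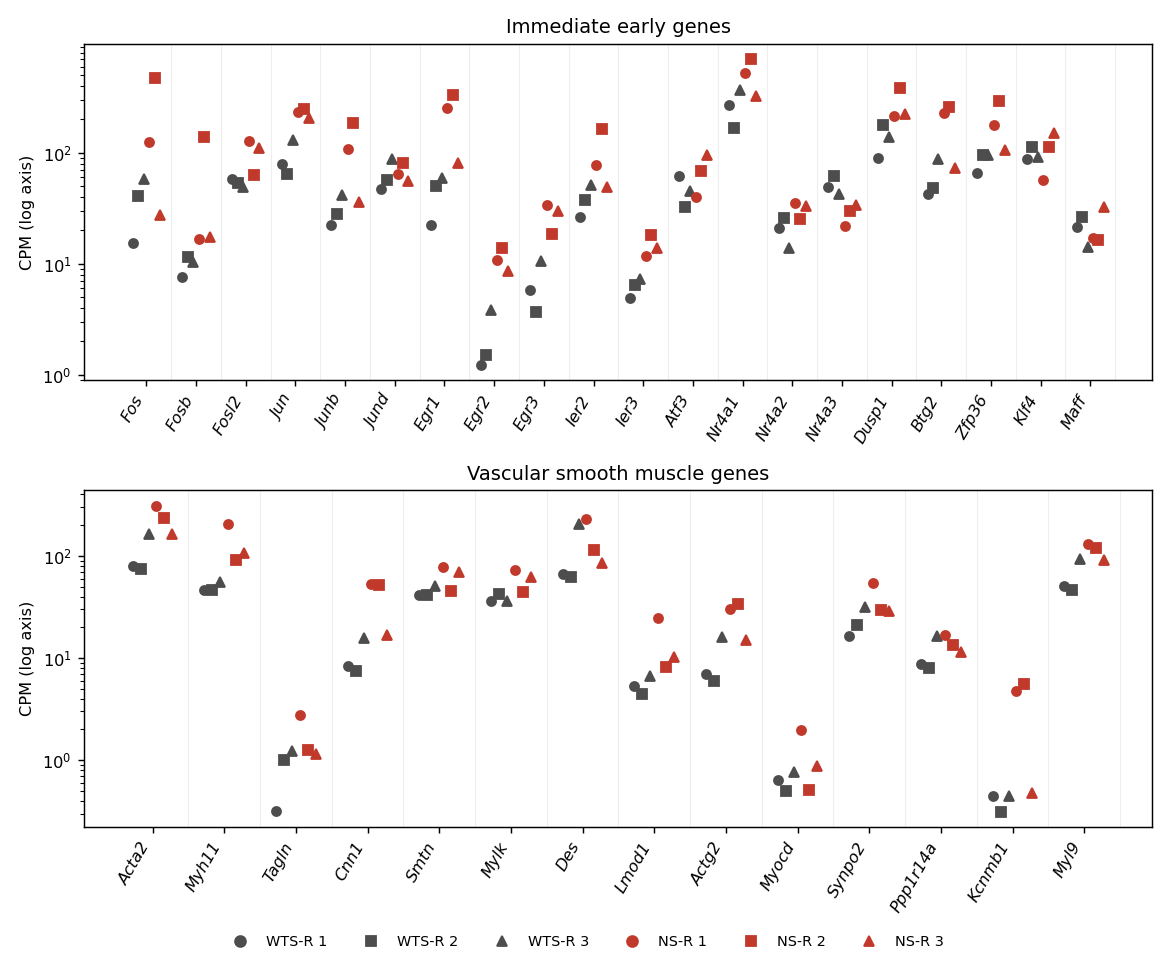
Level in CPM (log axis) of each of the 20 immediate early genes (top) and 14 vascular smooth muscle genes (bottom) in each library; grey symbols are WTS-R, red symbols NS-R, and the symbol shape gives the replicate. Jun, Egr2, Egr3 and Myh11 have all 3 red points above all 3 grey points, whereas the NS-R replicate 3 point (red triangle) of Fos, Junb, Btg2 and Kcnmb1 lies near the grey ones.

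Vascular smooth muscle genes, which encode the contractile apparatus of the vessel wall, also had positive fitted changes throughout (14 of 14). By edgeR 0 of 14 passed the FDR, 8 had an unadjusted p under 0.05 (all higher, against 4.92% of all genes) and 6 had groups that did not overlap (against 7.53%). Their median was 0.96, 1.14 without NS-R replicate 3 and 0.61 with that library alone. In the fit of the 6 libraries with NS-R replicate 1 left out it was 0.52. The summed level of the 14 genes was 367, 362 and 692 CPM (WTS-R) against 1218, 794 and 663 CPM (NS-R), with overlap between the groups. Myh11, the smooth muscle myosin heavy chain, was at 45.9, 45.8 and 55.6 CPM (WTS-R) against 207, 91.5 and 108 CPM (NS-R). All NS-R libraries were above WTS-R, including NS-R replicate 3. The Myh11 fold change was 1.48 (SE 0.28, FDR 0.204), and the FDR was 0.000399 to 0.9988 over the alternatives; Myh11 was called by DESeq2, by voomWithQualityWeights and by edgeR without NS-R replicate 3. Smooth muscle actin Acta2 was at 80.1, 75.2 and 162 CPM (WTS-R) against 309, 235 and 164 CPM (NS-R), where NS-R replicate 3 was just above WTS-R replicate 3. The log2 fold change of Acta2 was 1.17 (SE 0.36, FDR 0.447). Calponin (Cnn1) was at 8.27, 7.41 and 15.9 CPM (WTS-R) against 52.8, 51.5 and 16.7 CPM (NS-R) and the potassium channel subunit Kcnmb1 at 0.449, 0.314 and 0.450 CPM (WTS-R) against 4.80, 5.62 and 0.476 CPM (NS-R), both high in the libraries that also held airway transcripts and near WTS-R in NS-R replicate 3. Myosin light chain kinase (Mylk) was at 36.3, 42.5 and 36.0 CPM (WTS-R) against 73.4, 44.5 and 62.3 CPM (NS-R), a fold change of 0.66 (SE 0.18, FDR 0.346), and its regulatory light chain gene Myl9 was at 50.2, 46.1 and 92.9 CPM (WTS-R) against 132, 121 and 90.1 CPM (NS-R). Smooth muscle surrounds airways as well as vessels, and these libraries do not tell the sources of its RNA apart.

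Serum response factor binds the CArG box (CC, then 6 A or T, then GG), a known element of many immediate early and smooth muscle promoters, so the 250 bases before to 50 after the start site of the listed genes were searched on both strands in the RefSeq promoter table (GRCm38.p6). A promoter was found for 17 of the 20 immediate early genes and 10 of the 14 smooth muscle genes. An exact CArG box was in the window of 2 of the 17 (Egr2 and Zfp36) and 1 of the 10 (Myl9), against 1.81% of 27025 genes with a promoter in the table. The 250 bases before the start are shown for 1 gene of each group, with the CArG box in capitals; a match is a run of letters and no evidence of binding. Egr2 lies on chr10:67537316-67537565, plus strand, and Myl9 on chr2:156775214-156775463, plus strand.
Egr2: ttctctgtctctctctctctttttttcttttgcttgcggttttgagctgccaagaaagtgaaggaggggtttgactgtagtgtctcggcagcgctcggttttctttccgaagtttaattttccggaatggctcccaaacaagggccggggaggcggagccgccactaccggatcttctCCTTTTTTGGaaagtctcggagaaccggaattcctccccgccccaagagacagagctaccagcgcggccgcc
Myl9: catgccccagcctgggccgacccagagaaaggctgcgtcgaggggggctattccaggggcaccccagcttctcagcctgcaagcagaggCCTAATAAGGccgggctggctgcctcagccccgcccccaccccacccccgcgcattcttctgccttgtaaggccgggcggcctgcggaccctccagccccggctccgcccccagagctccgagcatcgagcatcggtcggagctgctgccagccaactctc

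Nerve, heart and endothelial genes were measured in the same dissected tissue. Schwann cell genes were tested for 12 of 12 and all 12 fitted changes were positive, with a median of 0.50; 0 passed the FDR, 4 had an unadjusted p under 0.05 (against 4.92% of all genes) and 3 lay above WTS-R without overlap (against 7.53%). Egr2 is a member of this list as well as of the immediate early genes. The Schwann cell median was 0.30 without NS-R replicate 1, 0.78 without WTS-R replicate 3 and 0.80 when the clock gene level was a covariate. Myelin basic protein (Mbp) was at 38.4, 41.7 and 34.4 CPM (WTS-R) against 53.8, 50.5 and 45.5 CPM (NS-R), with NS-R above WTS-R by less than 2-fold. Sox10, the lineage factor of Schwann cells, was at 3.72, 4.90 and 5.20 CPM (WTS-R) against 5.34, 3.64 and 6.06 CPM (NS-R) and overlapped. Cardiac genes can come in this region from myocardium of large veins or the atria. Of 14 fitted changes 13 were positive, 0 had an unadjusted p under 0.05 and 4 lay above WTS-R without overlap (against 7.53%). The cardiac median was 0.56. Without WTS-R replicate 2 that median was 0.36, without WTS-R replicate 3 0.95, and with sex as a covariate 0.88. The cardiac myosin heavy chain Myh6 was at 217, 232 and 383 CPM (WTS-R) against 816, 402 and 493 CPM (NS-R). Endothelial genes had 14 of 16 positive fitted changes with a median of 0.19, 4 members at an unadjusted p under 0.05 (against 4.92%) and 2 above WTS-R without overlap (against 7.53%), and the median was 0.07 without NS-R replicate 3 and 0.40 without NS-R replicate 2. Von Willebrand factor (Vwf) was at 61.1, 70.3 and 77.4 CPM (WTS-R) against 124, 89.5 and 178 CPM (NS-R), a log2 fold change of 0.92 (SE 0.33, FDR 0.660), whereas the vascular cadherin Cdh5 (202, 219 and 151 CPM (WTS-R) against 209, 159.6 and 267 CPM (NS-R)) did not separate the groups. Endothelial nitric oxide synthase (Nos3) was at 26.8, 39.8 and 40.5 CPM (WTS-R) against 38.3, 37.5 and 45.5 CPM (NS-R). Prostaglandin synthase 2 (Ptgs2), itself an immediate early type gene, was at 0.769, 1.07 and 1.22 CPM (WTS-R) against 3.92, 9.15 and 1.16 CPM (NS-R), high in NS-R replicates 1 and 2 alone.

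**Figure D4:**
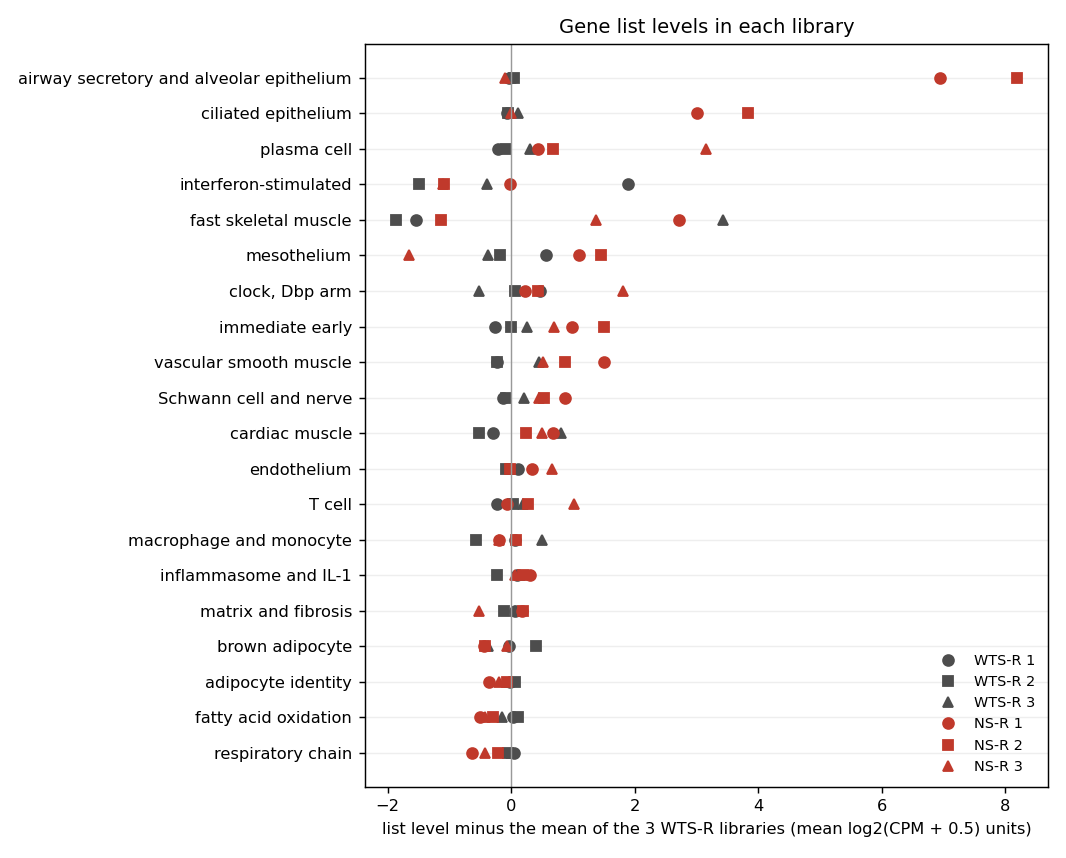
Level of 20 gene lists in each library (mean of log2(CPM + 0.5) over the tested and untested members), drawn as the difference from the mean of the 3 WTS-R libraries; WTS-R grey, NS-R red, symbol shape by replicate. The NS-R points lie to the right of all WTS-R points for plasma cell, immediate early, vascular smooth muscle and Schwann cell genes. They lie to the left for fatty acid oxidation, respiratory chain and adipocyte identity genes. NS-R replicates 1 and 2 reach the far right for airway genes, and NS-R replicate 3 is the furthest right for plasma cell genes.

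Genes of mitochondrial fuel use were lower in NS-R libraries by a small margin, and none of them passed the test. For fatty acid oxidation, the process that feeds brown-type fat, 16 of 16 fitted changes were negative with a median of -0.44. By edgeR 0 of 16 passed the FDR and 0 had an unadjusted p under 0.05, but 14 of 16 had all NS-R libraries below all WTS-R libraries, against 7.13% of all genes. The median was -0.42 without NS-R replicate 3, -0.45 with it alone and -0.42 without WTS-R replicate 1. Etfa, which passes electrons from acyl-CoA dehydrogenases to the respiratory chain, was at 1339, 1220.5 and 1040.1 CPM (WTS-R) against 782, 931 and 789 CPM (NS-R). Its log2 fold change was -0.51 (SE 0.40, FDR 0.9997). The thiolase Acaa2 was at 2215, 2052 and 2082 CPM (WTS-R) against 1273, 1901 and 1442 CPM (NS-R) and gave -0.45 (SE 0.48, FDR 0.9997). In both genes NS-R replicate 1 was the lowest library. Nuclear-encoded respiratory chain genes were negative for 20 of 20 with a median of -0.41, and 13 of 20 were below WTS-R in every NS-R library. ATP synthase subunit beta (Atp5b) was at 5334, 5027 and 5045 CPM (WTS-R) against 3106, 4182 and 3764 CPM (NS-R), a fold change of -0.47 (SE 0.43, FDR 0.9997). These members share libraries and a scaling factor, so their common direction is not 20 separate measurements. With sex as a covariate the medians were -0.06 for oxidation and -0.08 for the respiratory chain. NS-R replicate 3 is the one female library among the 6. With TS-R replicate 3, the other female library of the 13, it sets this covariate, which cannot be told apart from other traits of these libraries. With NS-R replicate 3 left out instead, the medians were -0.42 for oxidation and -0.42 for the respiratory chain.

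Adipocyte genes lay on the same side. Adipocyte identity genes were negative for 15 of 18 with a median of -0.29 and 8 below WTS-R in every NS-R library, and brown adipocyte genes for 14 of 19 with a median of -0.37 and 6 such genes (against 7.13% of all genes below without overlap); 0 of either list had an unadjusted p under 0.05. With sex as a covariate the identity median turned to 0.03 and the brown adipocyte median was -0.09. With NS-R replicate 3 left out instead, they were -0.30 and -0.49. When the clock gene level was a covariate they were -0.49 and -0.71. The brown adipocyte median was -0.24 without WTS-R replicate 2. Ucp1 had a log2 fold change of -0.84 (SE 0.50, FDR 0.9997), and WTS-R replicate 2 was far above the other libraries. The lipid droplet protein Cidea was at 2133, 2130.4 and 2104 CPM (WTS-R) against 1195, 1909 and 1452 CPM (NS-R) and gave -0.47 (SE 0.44, FDR 0.9997). Adipoq (adiponectin) gave -0.39 (SE 0.38, FDR 0.9997). Leptin (Lep) went the other way, at 26.1, 29.3 and 23.5 CPM (WTS-R) against 41.3, 41.6 and 54.4 CPM (NS-R), and its change of 0.81 (SE 0.76, FDR 0.9997) did not pass. The coactivator Ppargc1a, a cold- and adrenergic-responsive regulator of mitochondrial genes, was at 96.8, 208 and 21.5 CPM (WTS-R) against 21.0, 34.4 and 55.2 CPM (NS-R), with overlap between the groups. The plasma glutathione peroxidase Gpx3 was at 3237, 2944 and 3351 CPM (WTS-R) against 1818, 2446 and 2094 CPM (NS-R), and its fold change was -0.57 (SE 0.43, FDR 0.9997). Beside these values, the 16 airway genes summed to 7547 and 14962 CPM in NS-R replicates 1 and 2. With NS-R replicate 3, at 3.20 CPM for airway genes, as the only NS-R library, the medians against WTS-R were -0.45 for oxidation, -0.43 for the respiratory chain, -0.37 for adipocyte identity, -0.18 for brown adipocyte genes and 0.57 for fatty acid and triglyceride synthesis. That is 1 library, which also stood apart in sex, clock gene level and mitochondrial share, and the part of airway content in the levels of the fat genes was not tested.

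**Figure D5:**
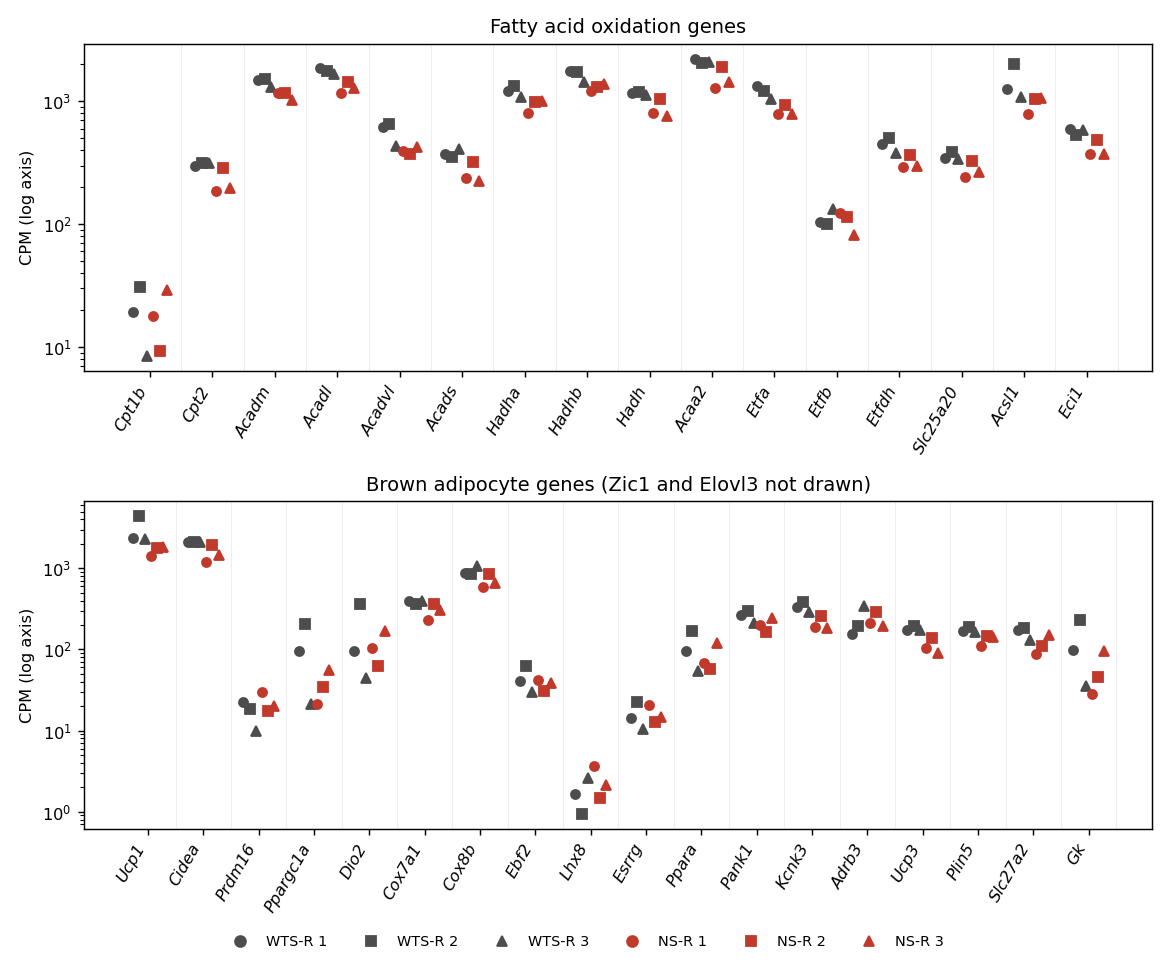
Level in CPM (log axis) of the fatty acid oxidation genes (top) and 18 of the 20 brown adipocyte genes (bottom) in each library; grey WTS-R, red NS-R, symbol shape by replicate. Red points lie just below the grey points for 14 of the 16 oxidation genes, and Ucp1 is highest in WTS-R replicate 2.

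By edgeR 0 genes with a lower fitted level in NS-R passed the FDR. The 12 named by the rule (Cars2, Mrps18b, Gatc, Gm4540, 2810405F17Rik, Nt5dc2, Ywhaq, Car13, Ipo4, Plekhf2, Acot9 and Gmpr) had an FDR of 0.594 to 0.759 and fitted log2 fold changes between -1.35 for Gm4540 and -0.41 for Ipo4. Mrps18b, Cars2 and Gatc act in mitochondrial translation. Mrps18b, a protein of the small mitochondrial ribosomal subunit, was at 22.2, 24.9 and 19.9 CPM (WTS-R) against 11.3, 15.5 and 17.9 CPM (NS-R). The mitochondrial cysteinyl-tRNA synthetase Cars2 was at 30.2, 68.9 and 34.3 CPM (WTS-R) against 28.0, 24.4 and 19.5 CPM (NS-R), and Gatc, a subunit of the mitochondrial glutamyl-tRNA amidotransferase, at 24.9, 29.9 and 28.6 CPM (WTS-R) against 19.8, 20.7 and 21.6 CPM (NS-R). All NS-R libraries were below WTS-R for each, as the rule required. Gmpr, guanosine monophosphate reductase, was at 158, 313 and 164 CPM (WTS-R) against 60.9, 83.3 and 104 CPM (NS-R), with a log2 fold change of -1.35 (SE 0.52, FDR 0.759). Ywhaq (14-3-3 theta) was at 185, 175 and 191 CPM (WTS-R) against 122, 152 and 126 CPM (NS-R) and gave -0.45 (SE 0.17, FDR 0.720). The cell cycle inhibitor Cdkn1a, a p53 and glucocorticoid target, was at 282, 363 and 230.4 CPM (WTS-R) against 120.1, 162 and 155 CPM (NS-R); its groups did not overlap, and its change was -0.99 (SE 0.48, FDR 0.985).

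Plasma cell and T cell genes were highest in NS-R replicate 3. Of 16 plasma cell genes 15 had a positive fitted change, 0 passed the FDR and 7 had an unadjusted p under 0.05 (against 4.92% of all genes). All NS-R libraries lay above all WTS-R libraries for 5 of the 16 (against 7.53%). The median was 1.85, but it was 0.64 without NS-R replicate 3. The IgA heavy chain Igha was at 0.705, 3.52 and 8.61 CPM (WTS-R) against 1.66, 7.67 and 531 CPM (NS-R), the kappa light chain Igkc at 12.1, 10.9 and 14.4 CPM (WTS-R) against 7.73, 22.7 and 1019.9 CPM (NS-R) and the IgG2c heavy chain Ighg2c at 0.128, 0.377 and 0.514 CPM (WTS-R) against 0.519, 0.682 and 285 CPM (NS-R). Reads of immunoglobulin genes can be shared between related segments, so these levels are uncertain. The joining chain Jchain was at 2.69, 1.57 and 2.70 CPM (WTS-R) against 4.62, 5.51 and 206 CPM (NS-R). Jchain was higher in every NS-R library than in WTS-R, and its log2 fold change of 4.96 (SE 1.48, FDR 0.397) became 1.12 without NS-R replicate 3. DESeq2 called 4 of the 16 (Jchain, Igkc, Ighg2c and Ighg2b; against 1.1% of all genes), and edgeR without NS-R replicate 3 called 0 of the 16 (against 2.77%). T cell genes had 19 of 20 positive fitted changes, a median of 0.66 and 0 members at an unadjusted p under 0.05. The T cell median was 0.13 without NS-R replicate 3, -0.07 with sex as a covariate and 1.02 without NS-R replicate 1, and Cd3e, a chain of the T cell receptor complex, was at 0.320, 0.628 and 0.321 CPM (WTS-R) against 0.467, 0.511 and 2.31 CPM (NS-R). For macrophages and monocytes the list median was -0.15, with 6 of 20 changes positive and 0 without overlap between the groups; it was 0.0014 without NS-R replicate 1, 0.07 when the clock gene level was a covariate, -0.39 without WTS-R replicate 2 and -0.03 without WTS-R replicate 3. The complement component gene C1qa, made by tissue macrophages, was at 68.9, 43.6 and 152 CPM (WTS-R) against 46.9, 71.0 and 48.9 CPM (NS-R).

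Clock genes also stood furthest from WTS-R in NS-R replicate 3. The 10 genes of the Dbp arm, which peak together under the CLOCK and BMAL1 activators, had 10 of 10 positive fitted changes and a median of 0.90, which was 0.31 without that library and 1.68 with it alone. By edgeR 0 of 10 passed the FDR and 2 had an unadjusted p under 0.05 (against 4.92% of all genes). All NS-R libraries lay above all WTS-R libraries for 3 of the 10 (against 7.53%). Dbp, a PAR bZIP output factor, was at 11.2, 4.27 and 3.66 CPM (WTS-R) against 14.8, 18.1 and 48.8 CPM (NS-R), and its log2 fold change was 2.10 (SE 0.73, FDR 0.633). Per3 was at 16.9, 11.2 and 11.8 CPM (WTS-R) against 27.2, 19.5 and 73.6 CPM (NS-R) and gave 1.60 (SE 0.53, FDR 0.538). Arntl, which encodes BMAL1 and peaks in the opposite phase, was at 14.4, 18.3 and 19.3 CPM (WTS-R) against 16.8, 12.8 and 3.61 CPM (NS-R), lowest in NS-R replicate 3. The time of dissection was not given in the labels and its part was not tested. CLOCK and BMAL1 bind the E-box CACGTG, which was found in the promoter window of 4 of 9 Dbp arm genes with a promoter (Bhlhe41, Ciart, Per1 and Tef), against 8.09% of all genes with a promoter in the table. Tef, a PAR bZIP factor at 109.8, 81.1 and 45.8 CPM (WTS-R) against 91.4, 101 and 250.3 CPM (NS-R), is shown with its E-box in capitals (chr15:81802423-81802672, plus strand, GRCm38.p6).
Tef: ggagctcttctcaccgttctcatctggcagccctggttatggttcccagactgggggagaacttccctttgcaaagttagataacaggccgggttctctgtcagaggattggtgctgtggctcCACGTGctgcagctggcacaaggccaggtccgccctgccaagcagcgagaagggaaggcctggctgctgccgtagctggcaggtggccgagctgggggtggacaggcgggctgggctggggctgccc

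Interferon-stimulated genes followed WTS-R replicate 1. All 20 tested members had a negative fitted change, 0 passed the FDR, 0 had an unadjusted p under 0.05 and 0 had groups that did not overlap. Their median was -1.37, and without WTS-R replicate 1 it was 0.29. Isg15, a ubiquitin-like modifier, was at 224, 12.1 and 28.9 CPM (WTS-R) against 36.0, 18.1 and 15.1 CPM (NS-R). The RNA-binding effector Ifit3, whose reads may be shared with the near-identical Ifit3b, was at 515, 15.1 and 47.7 CPM (WTS-R) against 63.3, 20.6 and 17.1 CPM (NS-R). In both, WTS-R replicate 1 was far above every other library and the groups overlapped among the other 5. The log2 fold change was -1.92 (SE 1.06, FDR 0.9997) for Isg15 and -2.50 (SE 1.27, FDR 0.9997) for Ifit3, and 0.17 and 0.11 without that library. The interferon-stimulated response element (ISRE), searched on both strands as GAAA, any 2 bases and GAAA, with overlapping matches merged, was in the window of 8 of 14 listed genes with a promoter (Bst2, Ifit1, Ifit3, Isg15, Oas1a, Oas3, Rsad2 and Stat2), against 3.99% of all genes with a promoter in the table. The 250 bases before the start of both genes, from RefSeq on GRCm38.p6, have the ISRE letters of either strand in capitals (Isg15, chr4:156200819-156201068, minus strand; Ifit3, chr19:34583279-34583528, plus strand).
Isg15: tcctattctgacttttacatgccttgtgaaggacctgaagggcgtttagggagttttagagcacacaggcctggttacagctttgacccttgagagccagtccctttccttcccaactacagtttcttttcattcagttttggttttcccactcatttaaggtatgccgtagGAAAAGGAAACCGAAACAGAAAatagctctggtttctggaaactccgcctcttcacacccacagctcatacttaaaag
Ifit3: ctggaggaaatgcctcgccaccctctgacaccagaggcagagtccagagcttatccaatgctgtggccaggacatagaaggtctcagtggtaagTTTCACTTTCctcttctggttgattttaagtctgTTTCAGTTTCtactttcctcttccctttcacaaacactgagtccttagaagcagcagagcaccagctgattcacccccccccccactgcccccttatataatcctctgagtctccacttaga

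In the matrix, cell division and lipid synthesis lists 0 members passed the FDR. Matrix and fibrosis genes had a median of -0.02 with 10 of 23 positive, 0.13 without NS-R replicate 3 and -0.48 with it alone. The fibrillar collagen Col3a1 was at 962, 803 and 923 CPM (WTS-R) against 1129.7, 1152 and 308 CPM (NS-R), with NS-R replicate 3 alone low. Cell division genes had 18 of 18 positive fitted changes with a median of 0.41, 0 at an unadjusted p under 0.05 and 4 above WTS-R without overlap (against 7.53% of all genes); the median was 0.23 without NS-R replicate 2 and -0.03 with sex as a covariate. Fatty acid and triglyceride synthesis genes had a median of 0.03, -0.34 without NS-R replicate 3 and 0.57 with it alone.

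Whether the difference between Nlrp3 KO and wild-type donors depended on donor diabetes was tested as an interaction, NTS-R minus TS-R less NS-R minus WTS-R. By edgeR 0 of 17270 genes (0%) passed the FDR; 812 (4.7%) had a higher and 2353 (13.6%) a lower value at an unadjusted p under 0.05. The DESeq2 interaction calls were 95 genes up (0.55%) and 991 down (5.74%). Those of voomWithQualityWeights were 621 up (3.6%) and 1251 down (7.24%). With TS-R replicate 3, the other female library of the series, left out, edgeR called 5 genes lower (0.0296% of 16874), which were Egr2, Egr3, Hid1, Jun and Ltk. Egr2 was at 8.003 ± 3.53 CPM in TS-R (SD, n = 4) and 1.05 ± 0.491 CPM in NTS-R (SD, n = 3), beside 2.17 ± 1.41 CPM in WTS-R (SD, n = 3) and 11.1 ± 2.63 CPM in NS-R (SD, n = 3). The mean of Egr2 was higher in NS-R than in WTS-R and lower in NTS-R than in TS-R, and its interaction was -5.29 (SE 0.74, FDR 0.0823) on the log2 scale in the fit of all libraries. Jun was at 102 ± 31.8 CPM in TS-R (SD, n = 4) and 59.4 ± 4.33 CPM in NTS-R (SD, n = 3), beside 91.2 ± 34.3 CPM in WTS-R (SD, n = 3) and 231 ± 22.4 CPM in NS-R (SD, n = 3), with an interaction of -2.13 (SE 0.42, FDR 0.115). Il1b was at 3.98 ± 2.31 CPM in TS-R (SD, n = 4) and 0.745 ± 0.206 CPM in NTS-R (SD, n = 3), beside 0.659 ± 0.210 CPM in WTS-R (SD, n = 3) and 2.36 ± 0.677 CPM in NS-R (SD, n = 3), and gave -4.24 (SE 0.71, FDR 0.115). The median interaction was -1.94 over the immediate early list, -1.04 over the inflammasome list, -0.46 over the smooth muscle list and 0.94 over the oxidation list, against -0.06 over all genes tested. Lists of other cell types had medians further from 0, at -5.75 for plasma cells, -5.46 for B cells, -4.76 for T cells, -4.79 for neutrophils, -4.64 for high endothelial venule and lymph node stroma and -12.83 for the 4 airway genes tested. The summed B cell level was 125 to 141 CPM in WTS-R, 114 to 260.4 CPM in NS-R, 290.2 to 4549 CPM in TS-R and 112 to 325 CPM in NTS-R. The summed T cell level was 18.8 to 26.6 CPM, 22.3 to 52.5 CPM, 41.6 to 1346 CPM and 23.1 to 51.6 CPM in the same order. That of airway genes was 5.32 to 6.28 CPM, 3.20 to 14962 CPM, 7.12 to 29.8 CPM and 3.79 to 5.56 CPM. The part of these cell types in the interactions was not tested.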

How the data were processed

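The deposited file holds whole-number counts per gene for 13 libraries of PVAT RNA. The authors' tools, per the submitters' processing notes, were HISAT2 and featureCounts. Their versions, the genome build, the annotation and strandedness were not stated in the labels or the file, so reads of overlapping or antisense genes may not be separated. Per the labels' protocols, RNA was extracted with TRIzol and paired-end libraries were made with an ABclonal mRNA-seq kit. Of 34013 gene identifiers 33302 matched a symbol and 711 did not. No pair of libraries within a group agreed within sampling noise (lowest chi-square per degree of freedom 32.65).

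Tests on the deposited counts used edgeR 4.0.16 (R 4.3.3) with filterByExpr, TMM, and a quasi-likelihood fit of all 13 libraries (common biological coefficient of variation 0.389, prior df 3.5), with Benjamini-Hochberg adjustment over all 17270 genes at 0.05. Fold changes are fitted log2 values with their SE. FDR values are edgeR's unless another tool is named. Checks used DESeq2 1.42.0, limma 3.58.1, other filters, scaling, covariates and library subsets, and the pipeline was tested on simulated data.

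The 46 gene lists (658 entries, 653 matched, 595 tested) are described by counts and medians. The comparison, its lists and its rules were chosen with earlier results of these data known. Genes were named by a rule: Nlrp3; per direction 12 genes with a mean of at least 1 CPM and groups that do not overlap, by smallest p; the 4 most abundant members of each list; and per library 5 genes with the largest gap to the next library. Further genes, such as the other genes called by voomWithQualityWeights, Il1b, Egr1, Egr2, Egr3, Fos, Junb, Dbp, Isg15 and the airway and immunoglobulin markers, were added after their values were seen. Male and female libraries were told apart by Xist (over 50 CPM). The values of some listed genes are not reported here.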

Additional observations from a re-analysis of the deposited data

How the results depend on the processing

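Of 27 alternatives 24 were planned, and 3 were chosen after seeing the data (voomWithQualityWeights on the 6 libraries alone, the same tool without NS-R replicate 3, and NS-R replicate 3 as the only NS-R library). Against 0 genes called higher in NS-R, DESeq2 called 190 on 13 libraries and 165 on the 6 libraries alone. The count was 14 by voomWithQualityWeights, 137 by edgeR without a count filter, 101 with sex as covariate and 12 with the clock gene level as covariate. The fit of male libraries, which leaves out NS-R replicate 3 and TS-R replicate 3, called 674. With NS-R replicate 3 left out, edgeR on the remaining 5 libraries called 693 and voomWithQualityWeights 906. Leaving out 1 library of either group gave 0 to 503, the highest without NS-R replicate 3. Genes called lower were 1 without a filter (Gm9029), 8 by DESeq2 on 6 libraries, 1 by edgeR on 6 libraries without NS-R replicate 3 (A730049H05Rik), and 4 by voomWithQualityWeights without it (Gm4540, Mrps18b, S1pr1 and Srp54c; the last pair chosen after their values were seen). RLE scaling, a filter at 1 CPM, edgeR or voomWithQualityWeights on the 6 libraries, and NS-R replicate 3 alone, a single library assumed to vary like the other groups, called 0 either way.

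Against 0 interaction calls, there were 95 higher and 991 lower by DESeq2, 621 and 1251 by voomWithQualityWeights (321 and 1444 without NS-R replicate 3), 1 (Gpx8) and 91 with no filter, 5 (A930029G22Rik, AC113540.1, Gm10032, Gpx8 and Mc5r) and 396 in male libraries, 0 and 21 with the sex covariate, and 0 and 107 with the clock covariate. Leaving out 1 WTS-R or NS-R library, or TS-R replicate 3, gave 0 to 3 higher (AC113540.1, Gm10032 and Mc5r) and 0 to 295 lower, both highest without NS-R replicate 3. The interaction under a replicate block had 2 genes higher (Gpx8 and Gtf2ird1) and 17 lower, and NS-R against WTS-R under the replicate block 0. Deviations of same-numbered WTS-R and NS-R libraries had correlations of 0.07, -0.15 and -0.15. Those of differently numbered libraries ran from -0.14 to 0.22. With 3 libraries a group, which also differed in content, these values cannot show whether the numbers mark pairs.

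The sign of the change was followed over the alternatives for 64 genes other than Nlrp3. Other genes named above, such as Kcnmb1, Lep and Col3a1, were not followed. Of the 64, 57 kept their sign in every alternative that tested them. Many of them were named because their groups did not overlap, or after their values were seen. A kept sign was in part fixed by that choice and is no separate support. With NS-R replicate 3 as the only NS-R library Fos turned to -0.43 and Cyp2f2 to -1.08. With the clock covariate Igha turned to -0.046 and Tef to -0.0055, and by voomWithQualityWeights without NS-R replicate 3 Igkc turned to -0.029. On the 5 libraries without WTS-R replicate 1, Ifit3 turned to 0.15 and Isg15 to 0.21; leaving out 1 library of the 13 gave -3.33 to 0.11 for Ifit3 and -2.44 to 0.17 for Isg15, the highest without WTS-R replicate 1. The causes were not tested. Of 40 lists with 5 or more tested members, 17 kept the sign of their median in every alternative.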
